A study of Homo sapiens with 40 samples.

Results

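The genes described are 10 members of the integrated stress response, ATF4, DDIT3, ASNS, TRIB3, CHAC1, PPP1R15A, DDIT4, CEBPB, PSAT1 and PHGDH, out of 57992 genes in the deposited count table. They were chosen by name, and each of the 10 was matched and passed the filter on low counts in every fit. The RNA came from HEK293T, a human embryonic kidney cell line, carrying the engineered peroxidase APEX2 targeted to the endoplasmic reticulum membrane (ERM), the cytosol (NES), the nuclear lamina (LMNB1) or the mitochondrial matrix (MITO). The s6G arms, present for all 4 constructs, received 100 µM 6-thioguanosine for 5 h in all, and the s4U arm, present for MITO alone, received 100 µM 4-thiouridine for the same time. Both arms, and the APEX-only arms without a thionucleoside, received 0.5 mM biotin-phenol for the last 30 min. The unlabelled arms received neither compound. Every arm, the unlabelled one included, was treated with 1 mM hydrogen peroxide for 1 min, so no group lacks peroxide. Each arm was sequenced as enriched RNA, retained on streptavidin, and as input RNA taken before that step. There were 4 biological replicates for ERM and 2 for every other arm, which made 20 enriched and 20 input libraries in all. How the constructs were expressed and whether a line was 1 clone is not given in the sources used here.

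In the integrated stress response, kinases that sense amino acid shortage, misfolded protein in the endoplasmic reticulum, viral RNA or haem shortage phosphorylate the translation initiation factor eIF2. General translation then falls while translation of the ATF4 mRNA rises, and the ATF4 protein, a bZIP transcription factor, induces genes for amino acid supply, redox balance and, in lasting stress, cell death. ATF4 is controlled to a large part at translation, so its mRNA level shows only part of its activity. ATF4 protein acts at composite sites for C/EBP and ATF factors, known as CARE, in the promoters of several of its targets.

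To show where such sites lie, 4 promoters are printed from RefSeq (GRCh38.p14), each as the 250 bases before the transcription start on the gene's own strand, taken for ASNS from the more upstream of its 2 entries. The motifs searched on both strands were TGATGNAA for CARE, TGACGTCA for the cyclic AMP response element CRE, and CCAAT followed by CCACG with 9 bases between for the endoplasmic reticulum stress element ERSE. No motif's letters overlap those of another. The first 2 promoters were chosen because they hold a CARE match, PPP1R15A because it holds a CRE match, and DDIT4 because its level moved with that of CHAC1 although its window held none of the 3 motifs. Capitals mark the matched letters.
ASNS, chr7:97872409-97872658, minus strand: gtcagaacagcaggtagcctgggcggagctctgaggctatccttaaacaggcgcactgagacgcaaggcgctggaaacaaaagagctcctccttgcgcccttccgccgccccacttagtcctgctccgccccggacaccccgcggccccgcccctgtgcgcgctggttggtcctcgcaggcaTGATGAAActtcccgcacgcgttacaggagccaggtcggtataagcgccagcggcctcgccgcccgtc
CHAC1, chr15:40953221-40953470, plus strand: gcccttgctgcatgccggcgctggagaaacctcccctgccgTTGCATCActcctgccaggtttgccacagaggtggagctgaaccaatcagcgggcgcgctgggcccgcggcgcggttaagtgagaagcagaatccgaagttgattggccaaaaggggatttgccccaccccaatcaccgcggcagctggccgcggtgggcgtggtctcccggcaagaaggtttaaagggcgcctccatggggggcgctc
PPP1R15A, chr19:48872171-48872420, plus strand: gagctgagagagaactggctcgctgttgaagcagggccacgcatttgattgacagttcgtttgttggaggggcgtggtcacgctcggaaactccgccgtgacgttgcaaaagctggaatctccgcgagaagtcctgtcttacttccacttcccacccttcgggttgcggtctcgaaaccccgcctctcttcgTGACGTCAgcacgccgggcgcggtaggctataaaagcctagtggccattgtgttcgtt
DDIT4, chr10:72273674-72273923, plus strand: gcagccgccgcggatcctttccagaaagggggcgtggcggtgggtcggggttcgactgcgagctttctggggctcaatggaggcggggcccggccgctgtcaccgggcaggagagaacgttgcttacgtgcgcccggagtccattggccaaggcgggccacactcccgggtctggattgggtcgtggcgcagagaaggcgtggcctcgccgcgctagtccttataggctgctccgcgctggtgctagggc
The ASNS match starts 68 bases before the transcription start, and the CHAC1 match, which reads as the motif on the opposite strand, 209 bases before it. The PPP1R15A match starts 58 bases before the start. Over windows that also take in the 50 bases after the start, CARE was found in 3.62% of 35116 promoters, CRE in 1.85% and ERSE in 0.0769%. Counted by gene, 2 of the 10 members held CARE, against 4.46% of 27305 genes. A match describes letters in this window and not a bound site.

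Input libraries held 3514080 to 12602000 counts and enriched libraries 123341 to 14496800, and the smallest enriched libraries were the 2 of the unlabelled MITO arm. No libraries held identical counts. The titles and the series design place the 4 enriched ERM libraries and the 4 LMNB1 s6G libraries in s6G arms, whereas another label of the same samples names s4U. The titles were followed, and every ERM or LMNB1 s6G result below rests on that choice. ATF3, a bZIP factor of the same stress pathways, had 166 to 334 CPM in the s6G inputs, these LMNB1 libraries included, against 31.4 to 81.2 in the other inputs. CPM in this paragraph are counts relative to library totals without further scaling. In enriched libraries ATF3 had 224 to 1058 CPM in the s6G arms against 22.2 to 85.1 in the others. Of the kidney line's markers reported here EYA1 was detected, PAX2 was low and LHX1 was at or near 0. Of 14 markers of other cell types 13 were at or below 0.874 CPM in every input, and COL1A1 ran from 18.0 to 85.7 CPM. Their sum was 18.8 to 28.9 CPM in ERM and NES inputs, against 28.3 to 86.2 CPM in LMNB1 and MITO inputs, and its part in the results was not tested. In bulk RNA a change in every cell and a change in part of the cells cannot be told apart.

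The 10 mRNAs differed widely in abundance. The authors' deposited table of MITO TPM gives log2(TPM + 1) per group, and its columns sum to 2e+06 TPM on the linear scale, the total of 2 libraries. Taken back to the linear scale and divided by the 2 replicates, these length-corrected levels were, in MITO s6G inputs, 2914 TPM for ATF4, followed by 421 TPM for DDIT4, an inhibitor of mTORC1 signalling, and 118 TPM for CEBPB, a C/EBP family factor. ASNS had 78.1, CHAC1 72.6, PPP1R15A 70.7, PSAT1 52.6 and PHGDH 49.6 TPM. The lowest were DDIT3 with 8.84 TPM and TRIB3 with 3.25 TPM. These are values of a group with no spread, so the order of neighbours such as CHAC1 and PPP1R15A was not tested. The levels that follow are counts relative to each library's total after scaling by the trimmed mean of M values (normalised CPM), which are compared between libraries and not between genes.

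ATF4, the transcription factor at the centre of the response, was the only member called between 2 arms of a single construct in input RNA. Its gene lies at chr22:39520559-39522686 (GRCh38.p14). It had 1556 and 1176 normalised CPM in the LMNB1 s6G inputs, against 679 and 719.9 in LMNB1 APEX-only and 712 and 823 in LMNB1 unlabelled inputs. In MITO cells it had 1795 and 1120.2 in s6G inputs and 1015 and 965 in s4U inputs, against 906 and 968 in APEX-only and 836 and 1053 in unlabelled inputs. Every s6G library lay above every library without a thionucleoside, while both s4U libraries lay within the range of the MITO libraries without one. The ERM s6G inputs had 1539.7, 1534, 1733 and 1884 normalised CPM and the NES s6G inputs 1127 and 1408, but no ERM or NES arm without s6G was analysed here. In LMNB1 cells ATF4 rose by 0.97 ± 0.21 on the log2 scale (SE, 1.95-fold) in s6G over APEX-only inputs, with an adjusted p of 0.0149 (edgeR's quasi-likelihood test, Benjamini-Hochberg over 15305 genes). It was the only one of 10 members called there, where 3.3% of all genes were called higher and 6.29%, or 963 genes, in either direction. ATF4 was not called in a fit of the LMNB1 inputs alone, where 3 of all genes were. Nor was it called with all 40 libraries fitted, where 316 of all genes were. The call was also lost when LMNB1 s6G number 1 or either LMNB1 APEX-only input was left out, which leaves 1 library in an arm. Fewer of all genes were called in these fits too. ATF4 was called in 8 of 13 alternatives, with log2 differences from 0.73 to 1.15. In MITO cells the difference was 0.64 ± 0.21 (adjusted p 0.095 by edgeR), and 0 of 10 members were called, against 4.26% of all genes. Of the 10 members, 2 had an unadjusted p under 0.05 there, and DESeq2 called 1, ATF4.

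**Figure D1:**
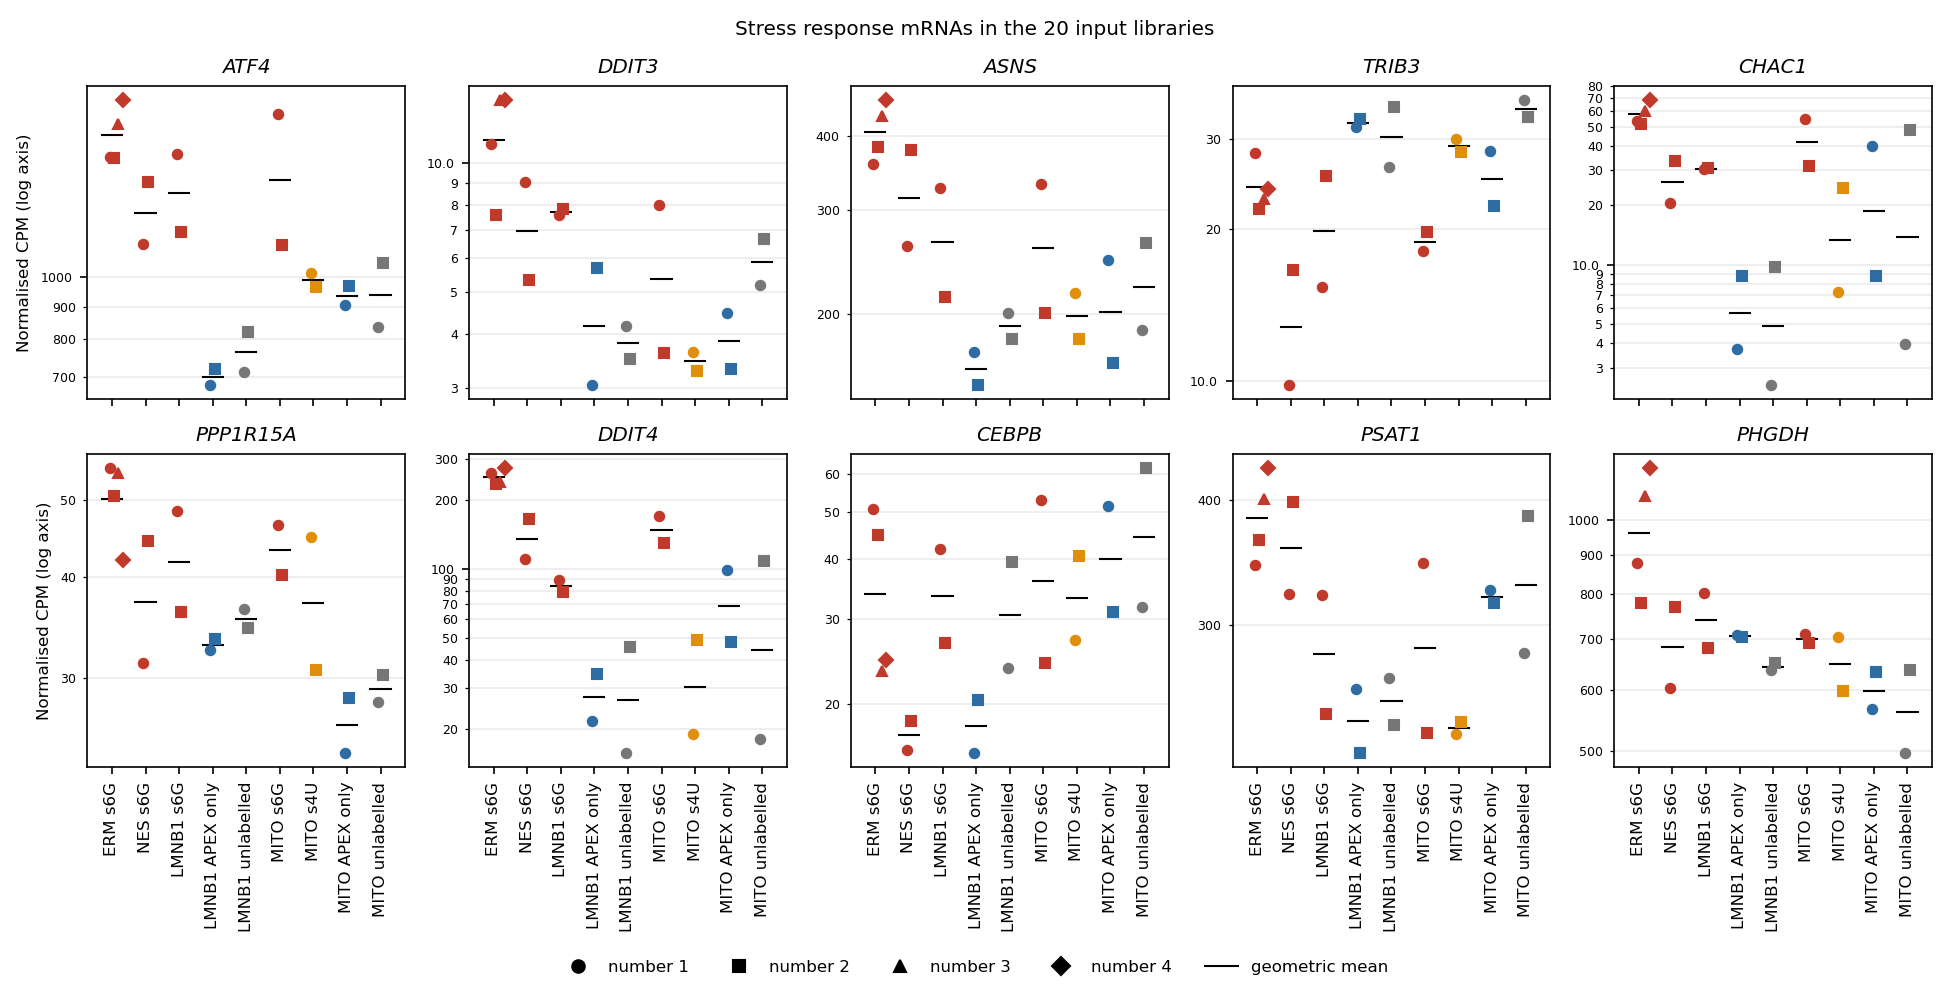
Normalised CPM of the 10 members (log axes, 1 panel each) in the 20 input libraries by construct and arm, with 1 symbol per library number and a black bar at the geometric mean. ATF4 lies between 1120.2 and 1884 in the s6G inputs of MITO, LMNB1, ERM and NES and at most at 1053 in the inputs without a thionucleoside, while CHAC1 and DDIT4 spread widely within arms.

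PPP1R15A encodes GADD34, the stress-induced subunit that directs protein phosphatase 1 to eIF2 and so ends the response. It had 46.5 and 40.2 normalised CPM in MITO s6G inputs and 44.9 and 30.7 in s4U inputs, against 24.2 and 28.3 in APEX-only and 27.9 and 30.2 in unlabelled inputs. In LMNB1 cells it had 48.4 and 36.2 in s6G inputs, against 32.4 and 33.5 in APEX-only and 36.5 and 34.5 in unlabelled inputs. Both MITO s6G libraries lay above the MITO libraries without a thionucleoside, and LMNB1 s6G number 2 overlapped the unlabelled ones. The s6G over APEX-only difference was 0.72 ± 0.23 (adjusted p 0.0786) in MITO and 0.36 ± 0.22 (adjusted p 0.374) in LMNB1 inputs by edgeR. Neither passed.

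DDIT3 encodes CHOP, a bZIP factor associated with cell death in lasting stress. It had few reads, for example 27 and 13 counts in the MITO s6G inputs. LMNB1 s6G inputs had 7.57 and 7.83 normalised CPM, against 3.04 and 5.71 in LMNB1 APEX-only inputs. MITO s6G inputs had 8.00 and 3.61, against 4.47 and 3.31 in MITO APEX-only inputs. The groups were apart in LMNB1 and overlapped in MITO cells, and neither difference passed (0.81 ± 0.43, adjusted p 0.289, and 0.58 ± 0.46, adjusted p 0.524, edgeR). ERM s6G inputs reached 11.0, 7.56, 14.0 and 14.0 normalised CPM. DDIT3 overlaps MARS1 in the annotation, and reads of overlapping genes may not be separable here, since the strand setting of the counting is not given in the sources used here.

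TRIB3, a pseudokinase induced by ATF4 and CHOP that feeds back on ATF4, ran the other way. It had 18.1 and 19.7 normalised CPM in MITO s6G inputs and 30.1 and 28.3 in s4U inputs, against 28.4 and 22.2 in APEX-only and 35.9 and 33.2 in unlabelled inputs. In LMNB1 cells it had 15.4 and 25.4 in s6G inputs, against 31.8 and 32.9 in APEX-only and 26.5 and 34.7 in unlabelled inputs. All 4 of these s6G libraries lay below the matched APEX-only libraries. The difference was −0.66 ± 0.26 (adjusted p 0.144) in LMNB1 and −0.42 ± 0.27 (adjusted p 0.407) in MITO inputs by edgeR, and neither passed. By group mean NES s6G inputs were lowest, at 9.84 and 16.6 normalised CPM.

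CHAC1, which degrades glutathione, and DDIT4, also called REDD1, showed large differences between replicates of 1 arm. CHAC1 had 54.8 and 31.6 normalised CPM in MITO s6G inputs and 7.27 and 24.3 in s4U inputs, against 39.8 and 8.78 in APEX-only and 3.96 and 48.2 in unlabelled inputs. In LMNB1 cells CHAC1 had 30.5 and 30.7 in s6G inputs, against 3.72 and 8.72 in APEX-only and 2.45 and 9.74 in unlabelled inputs. The MITO libraries without a thionucleoside thus ran from 3.96 to 48.2, and the LMNB1 s6G inputs stood apart from their controls. DDIT4 had 169 and 129 normalised CPM in MITO s6G inputs and 18.9 and 48.9 in s4U inputs, against 98.9 and 48.0 in APEX-only and 18.0 and 108 in unlabelled inputs. In LMNB1 cells DDIT4 had 89.1 and 78.9 in s6G inputs, against 21.6 and 34.7 in APEX-only and 15.7 and 45.3 in unlabelled inputs. Every MITO and LMNB1 s6G library lay above the matched libraries of its own construct for DDIT4. By group mean ERM s6G inputs were highest for both, with 53.3, 51.2, 60.1 and 67.9 for CHAC1 and 260.4, 234, 239.9 and 275 for DDIT4.

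In LMNB1 cells the s6G over APEX-only difference was 2.28 ± 0.86 for CHAC1 (adjusted p 0.125) and 1.57 ± 0.60 for DDIT4 (adjusted p 0.135), and in MITO cells 0.84 ± 0.78 and 1.03 ± 0.58 (adjusted p 0.597 and 0.345, edgeR). None passed. Over the 9 input groups the SD within a group was 1.08 on the log2 scale for CHAC1, 0.76 for DDIT4 and 0.52 for CEBPB. These lie at the 99.9th, 99.8th and 96.2th percentile of genes of like level. The 2 genes moved together, with a Pearson r of 0.95 between their log2 levels over the 20 inputs and 0.98 between their deviations from the group means, points that share cultures, libraries and depth. The gene most like both over the 20 inputs was SESN2, a stress-induced regulator of mTORC1 and redox balance, with r of 0.92 to CHAC1 and 0.96 to DDIT4. For DDIT4 the library that was higher in the input was also higher in the enriched RNA in 8 of 8 arms with 2 replicates, and so for CEBPB in 8 of 8 and CHAC1 in 5 of 8.

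**Figure D2:**
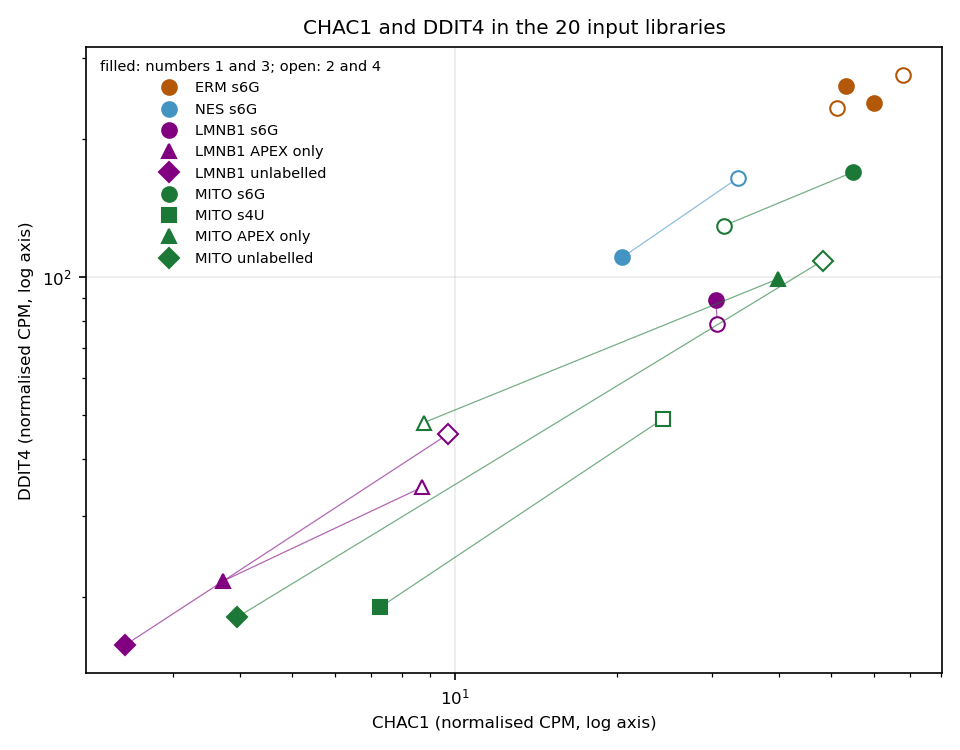
DDIT4 against CHAC1 (normalised CPM, log axes) in the 20 input libraries, coloured by construct and shaped by arm, with filled symbols for numbers 1 and 3, open ones for 2 and 4, and a line joining each pair of replicates. The points follow 1 rising band (r 0.95), and MITO unlabelled numbers 1 and 2 lie at 3.96 and 48.2 for CHAC1, far apart within 1 arm.

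CEBPB had 53.0 and 24.4 normalised CPM in MITO s6G inputs and 27.3 and 40.6 in s4U inputs, against 51.4 and 31.1 in APEX-only and 31.9 and 61.7 in unlabelled inputs. In LMNB1 cells it had 42.0 and 26.8 in s6G inputs, against 15.9 and 20.4 in APEX-only and 23.8 and 39.4 in unlabelled inputs. The MITO arms overlapped throughout, and the LMNB1 difference of 0.91 ± 0.46 over APEX-only did not pass (adjusted p 0.257, edgeR). ERM s6G inputs split, with 50.9 and 44.8 in numbers 1 and 2 and 23.5 and 24.7 in numbers 3 and 4, and NES s6G inputs had 16.1 and 18.5. CEBPB overlaps its antisense gene CEBPB-AS1, with the same limit on strand.

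Of the 3 enzymes of amino acid synthesis, ASNS makes asparagine, and PHGDH and PSAT1 carry out consecutive steps of serine synthesis. ASNS had 332 and 201 normalised CPM in MITO s6G inputs and 217 and 182 in s4U inputs, against 247 and 165 in APEX-only and 188 and 264 in unlabelled inputs. In LMNB1 cells ASNS had 327 and 214 in s6G inputs, against 173 and 152 in APEX-only and 201 and 182 in unlabelled inputs. Only the LMNB1 groups were apart, by 0.74 ± 0.27 over APEX-only (adjusted p 0.115, edgeR). PSAT1 ran from 234 to 346 normalised CPM over MITO and LMNB1 s6G inputs, against 224 to 386 over their inputs without a thionucleoside. PHGDH ran from 681 to 803, against 497 to 708. Both ranges overlapped, and neither gene was called in either construct. The annotation lists 4 pseudogenes named after ATF4, 5 after ASNS and 4 after PSAT1, so reads may be shared with them.

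Between LMNB1 s6G and APEX-only inputs the libraries did not overlap and s6G was higher for 7 of 10 members, against 27.6% of all genes, and s6G was lower for 1, TRIB3, against 25.3%. Between MITO s6G and APEX-only inputs s6G was higher without overlap for 4 members, against 21.9% of all genes, and lower for 1, against 23.1%. The median log2 difference of the members was 0.77 in LMNB1 and 0.47 in MITO inputs, beside 0.00 over all genes in both. The difference between the 2 constructs in this s6G effect was called for 0 of 10 members and 0 of all 15305 genes, with 0 members at an unadjusted p under 0.05. For ATF4 it was 0.33 ± 0.30, with a 95% interval of −0.30 to 0.95.

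No member passed the test for s4U. Between MITO s4U and APEX-only inputs 0 of 10 members were called, beside 1.14% of all genes, and 2 had an unadjusted p under 0.05. These were PPP1R15A at 0.52 ± 0.22 and PSAT1 at −0.43 ± 0.20 (adjusted p 0.347 and 0.401, edgeR). DESeq2 also called 0. The 2 nucleosides, a guanosine and a uridine that each carry sulfur in place of an oxygen of the base, were compared at the same dose and time in MITO cells. Between s6G and s4U inputs 0 members were called, beside 0.653% of all genes, 3 had an unadjusted p under 0.05, DESeq2 called 0, and DDIT4 differed most, by 2.13 ± 0.61 (95% interval 0.83 to 3.42, p 0.00302, adjusted p 0.125 by edgeR). ATF4 differed by 0.56 ± 0.21 (interval 0.12 to 1.00, adjusted p 0.249) and TRIB3 by −0.63 ± 0.27 (interval −1.19 to −0.06, adjusted p 0.316). For PPP1R15A the interval was −0.27 to 0.67. The intervals of DDIT4, ATF4 and TRIB3 lay to one side of 0 and that of PPP1R15A took in 0, and no adjusted p passed.

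No member passed the test for biotin-phenol without a thionucleoside. Between APEX-only and unlabelled inputs 0 of 10 members and 0 of all genes were called in MITO and in LMNB1 cells by edgeR. No member had an unadjusted p under 0.05 in either, and DESeq2 called no member. ATF4 differed by −0.01 ± 0.21 in MITO and −0.13 ± 0.21 in LMNB1 inputs.

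Because these 2 arms did not differ detectably, all 4 libraries without a thionucleoside were set against s6G within each construct and the MITO and LMNB1 effects averaged, a comparison chosen after the data were seen. Here 6 of 10 members were called, 5 higher and 1 lower, against 26.6% of all genes, of which 13.5% were higher and 13.1% lower. ATF4 rose by 0.77 ± 0.13 (1.70-fold, adjusted p 0.000346), DDIT4 by 1.31 ± 0.35 (2.49-fold, adjusted p 0.0105) and CHAC1 by 1.52 ± 0.48 (2.86-fold, adjusted p 0.0265) by edgeR. PPP1R15A rose by 0.48 ± 0.13 (adjusted p 0.0151) and ASNS by 0.46 ± 0.16 (adjusted p 0.0434), while TRIB3 fell by 0.63 on the log2 scale (SE 0.16, adjusted p 0.00945). DDIT3, CEBPB, PSAT1 and PHGDH did not pass, at 0.59 ± 0.27, 0.16 ± 0.27, 0.01 ± 0.12 and 0.20 ± 0.12. Only ATF4 had every s6G library above all 8 libraries without a thionucleoside over both constructs, against 7.08% of all genes. ATF4 and DDIT4 were called in all 20 alternatives (adjusted p up to 0.00621 and 0.0453). TRIB3 was called in 19, PPP1R15A in 16, CHAC1 in 14 and ASNS in 9 of them (adjusted p up to 0.0570, 0.138, 0.113 and 0.314). The ASNS call was lost without any 1 LMNB1 input other than s6G number 2, and without MITO s6G number 1, APEX-only number 2 or unlabelled number 1 (adjusted p 0.0507 to 0.314, log2 difference 0.26 to 0.49). The CHAC1 call was also lost without LMNB1 s6G number 2 or APEX-only number 1 (adjusted p 0.0612 and 0.0539). Without LMNB1 s6G number 1 only ATF4 and DDIT4 stayed called. Without MITO s6G number 1, and likewise with scaling by total counts, only ATF4, DDIT4 and TRIB3 stayed called. The like comparison for s4U in MITO inputs called 0 members, beside 3.59% of all genes, and 2 had an unadjusted p under 0.05, PPP1R15A and PSAT1.

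**Figure D3:**
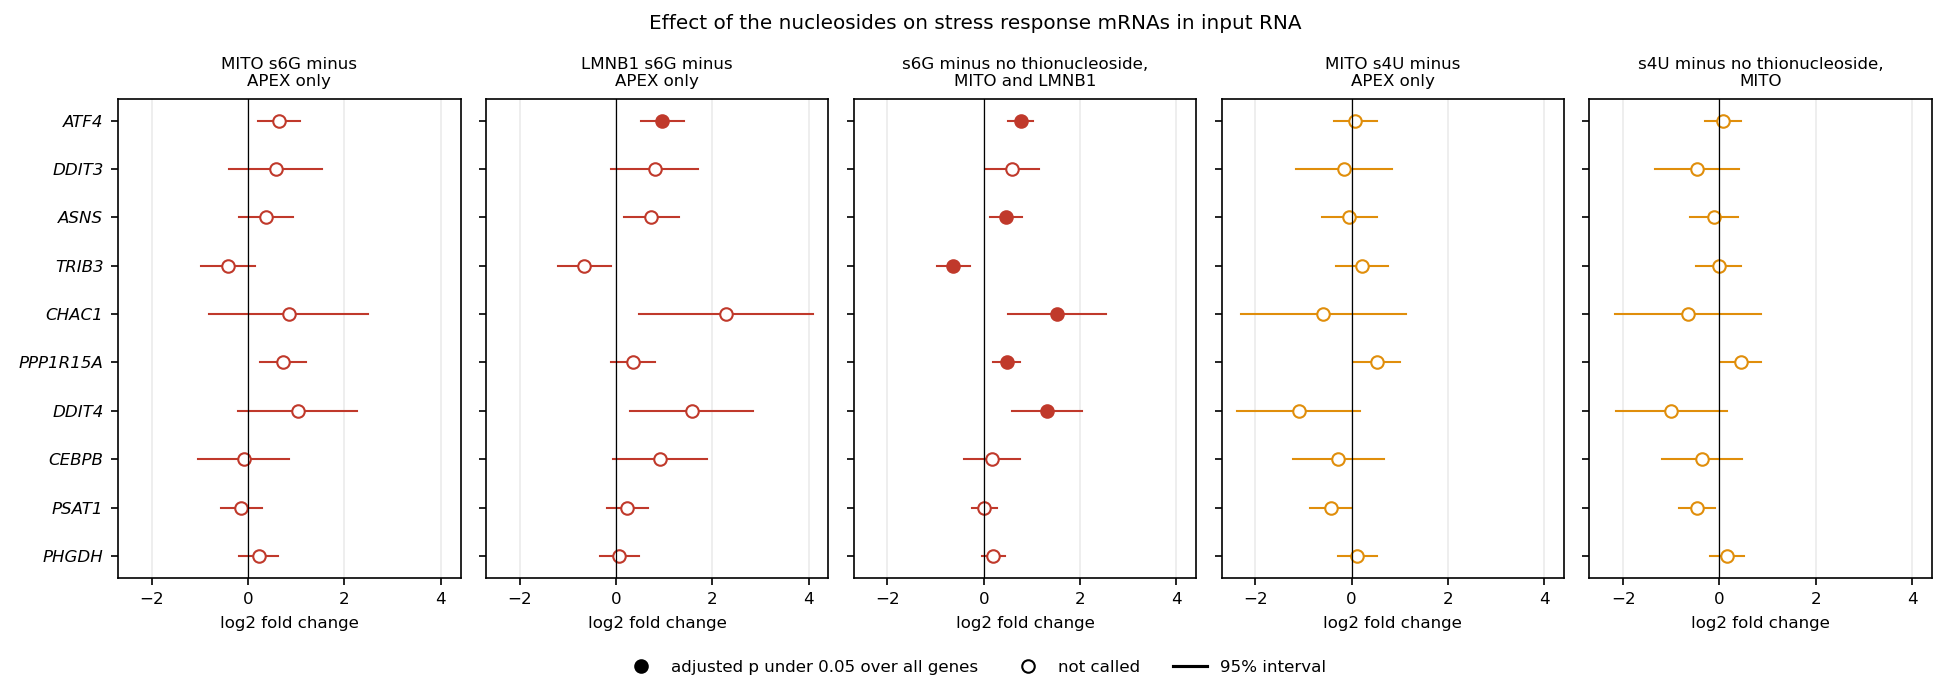
Log2 fold change of each member in input RNA with its 95% interval, for MITO and LMNB1 s6G over APEX only, for s6G over all inputs without a thionucleoside, and for s4U over APEX only and over all such MITO inputs. Filled points passed an adjusted p of 0.05 over all genes. ATF4 is filled in LMNB1 (0.97), 6 members are filled in the third panel, and none is filled for s4U.

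The other genes of the pathway, in 7 lists written with earlier results of these data known, gave few calls in the inputs. In s6G over APEX-only inputs, ATF3 alone of the bZIP partners was called, at 2.38 ± 0.29 in MITO (adjusted p 0.000312) and 2.23 ± 0.29 in LMNB1 cells (adjusted p 0.000442, edgeR). The only other list gene called in either was TNFRSF10B, a death receptor, at −0.64 ± 0.17 in MITO cells (adjusted p 0.0424). In the averaged comparison with all inputs lacking a thionucleoside, 2 of 16 genes of eIF2 and its regulators were higher and 1 lower, with PPP1R15B, the constitutive partner of the eIF2 phosphatase, at 0.62 ± 0.13. Of the bZIP partners, 1 of 10 was higher and 3 were lower, with CEBPA at −1.38 ± 0.29. Among genes of amino acid and one-carbon synthesis 1 of 12 was higher, SHMT2, which makes glycine in mitochondria, at 0.46 ± 0.12. Of the amino acid transporters 1 of 10 was higher, SLC3A2, the shared heavy chain of several exchangers, at 0.88 ± 0.18, and 1 was lower. Of the cytosolic aminoacyl-tRNA synthetases 1 of 20 was higher, QARS1, at 0.34 ± 0.11. Of 12 tested of 15 other genes known to be induced by ATF4 or CHOP, 3 were higher and 1 was lower, with STC2 at 0.95 ± 0.24 and SESN2 at 0.89 ± 0.24. Of 17 tested of 18 genes of the IRE1 and ATF6 branches of the unfolded protein response 1 was higher and 2 were lower. All these shares but those of the bZIP partners (40%) and the other ATF4 or CHOP genes (33.3%) were below the 26.6% of all genes.

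Constructs were compared among s6G inputs. No member was called in LMNB1 over MITO (0.307% of all genes called), in ERM over MITO (2.44%) or in NES over MITO inputs (0.562%). In these 3 comparisons 0, 4 and 1 members had an unadjusted p under 0.05, and DESeq2 called 0. In ERM over MITO inputs PHGDH was at 0.48 ± 0.17, ASNS at 0.62 ± 0.24 and DDIT3 at 1.02 ± 0.39 (adjusted p 0.143, 0.172 and 0.165, edgeR). Of the 10 members, 4 were higher in ERM without overlap, against 16.3% of all genes. CEBPB was at −1.16 ± 0.47 in NES over MITO inputs (adjusted p 0.300). Between LMNB1 and MITO APEX-only inputs 0 members were called, beside 0.575% of all genes and also by DESeq2, and 3 had an unadjusted p under 0.05, with CHAC1 at −1.93 ± 0.86, DDIT4 at −1.37 ± 0.60 and CEBPB at −1.18 ± 0.45 (adjusted p 0.349 to 0.453). The inputs of a construct share its line and its handling, which cannot be told apart.

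By Pearson correlation of log2 levels over the 20 inputs, among 8480 genes of sufficient level, ATF4 was most like CLIC4 (r 0.94), CCNT1 and GRPEL2 (0.93 each). ASNS was most like CLIC4 and FEM1B (0.94 each) and STC2 (0.93), DDIT3 most like HSPA13 (0.89), PSAT1 most like CEBPG (0.90) and PHGDH most like WWOX (0.94). Among the members ATF4 and ASNS had an r of 0.90 and ASNS and PSAT1 0.86. TRIB3 and ATF4 had an r of −0.51. These libraries share constructs, arms and depth, so the values describe and do not test.

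In ERM and NES cells 7 members were higher in enriched than in input RNA and the 3 enzymes of amino acid synthesis were lower. Neither construct had an APEX-only or unlabelled arm here, so bead background, thionucleoside labelling and location cannot be told apart for them. DDIT4 had 692, 648, 793 and 887 normalised CPM in enriched ERM RNA, against 255, 227, 234 and 269 in ERM input (levels are rescaled in this fit of the 12 ERM and NES libraries). In NES cells DDIT4 had 571 and 754 in enriched RNA, against 107 and 162 in input. Every enriched library lay well above every input, and DDIT4 rose by 1.62 ± 0.14 in ERM and 2.30 ± 0.21 in NES cells (3.07- and 4.93-fold, adjusted p 2.01e-08 and 8.04e-08, edgeR). All 10 members were called in each construct. Of all genes 63.2% were called in ERM cells, 34.3% higher and 28.9% lower, and 55.1% in NES cells, 28.7% higher and 26.4% lower, so calls were common.

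The regulators TRIB3, PPP1R15A and CEBPB rose in both constructs. TRIB3 had 52.8, 47.2, 42.4 and 46.0 normalised CPM in enriched ERM RNA, against 27.7, 21.3, 22.3 and 23.4 in ERM input, and 40.2 and 51.3 in enriched NES RNA, against 9.56 and 16.3 in NES input. PPP1R15A had 114, 118, 109 and 111 in enriched ERM RNA, against 53.7, 48.9, 52.6 and 41.0 in ERM input, and 104 and 117 in enriched NES RNA, against 30.4 and 43.6 in NES input. Neither gene's groups overlapped, and they rose by 0.99 ± 0.15 and 1.21 ± 0.12 in ERM and by 1.82 ± 0.23 and 1.57 ± 0.18 in NES cells. CEBPB had 64.4, 67.9, 79.2 and 92.7 in enriched ERM RNA, against 49.9, 43.4, 22.9 and 24.1 in ERM input, and 75.3 and 80.9 in enriched NES RNA, against 15.7 and 18.2 in NES input. It rose by 1.14 ± 0.21 in ERM cells, a value that was 0.54 with ERM numbers 1 and 2 alone and 1.87 with numbers 3 and 4 alone, and by 2.21 ± 0.32 in NES cells.

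CHAC1 had 73.4, 69.7, 107 and 118 normalised CPM in enriched ERM RNA, against 52.3, 49.7, 58.6 and 66.3 in ERM input, and 62.5 and 63.6 in enriched NES RNA, against 19.9 and 33.0 in NES input. It rose by 0.70 ± 0.17 in ERM and 1.25 ± 0.26 in NES cells (adjusted p 0.00173 and 0.000576), and both calls were lost in a fit of all 40 libraries (adjusted p 0.366 and 0.268). ATF4 had 1765, 2103, 2611 and 2696 in enriched ERM RNA, against 1510.3, 1487, 1691 and 1840.2 in ERM input, and 2479 and 2250.3 in enriched NES RNA, against 1095 and 1384 in NES input. ERM number 1 overlapped the inputs, and ATF4 rose by 0.49 ± 0.15 in ERM and 0.93 ± 0.21 in NES cells. DDIT3 had 14.8, 21.3, 31.2 and 35.0 in enriched ERM RNA, against 10.8, 7.33, 13.6 and 13.7 in ERM input, and 9.62 and 20.3 in enriched NES RNA, against 8.79 and 5.26 in NES input. It rose by 1.16 ± 0.28 in ERM and by 1.09 ± 0.45 in NES cells (adjusted p 0.0476), a call lost without NES enriched number 2 or NES input number 2 (adjusted p 0.473 and 0.272).

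The 3 enzymes fell. ASNS had 151, 187, 218 and 204 normalised CPM in enriched ERM RNA, against 352, 371, 422 and 449 in ERM input, and 127 and 189 in enriched NES RNA, against 253 and 372 in NES input. PHGDH had 364, 357, 435 and 502 in enriched ERM RNA, against 863, 755, 1048 and 1142 in ERM input, and 275 and 371 in enriched NES RNA, against 588 and 757 in NES input. No enriched library reached an input for either gene. On the log2 scale ASNS fell by 1.07 in ERM and by 0.98 in NES cells, and PHGDH by 1.20 and by 1.06. PSAT1 had 201, 235, 239.9 and 234 in enriched ERM RNA, against 338, 353, 391 and 421 in ERM input, and fell by 0.72 in ERM and by 0.65 in NES cells. The NES call for PSAT1 was lost without NES enriched number 1 or NES input number 2 (adjusted p 0.0747 and 0.0647). In the authors' deposited DESeq2 table of enriched ERM over enriched NES RNA, DDIT3 stood at a log2 fold change of 0.82 (p 0.0129), CHAC1 at 0.59 (p 0.00487) and PHGDH at 0.40 (p 0.0221). The other members had an unadjusted p of 0.101 or more. That ratio is not corrected for input. With input taken into account, CHAC1 was lower in ERM than in NES enrichment in all 21 alternatives (−0.96 to −0.28). The sign varied for DDIT3 (−0.40 to 0.71) and PHGDH (−0.34 to 0.10).

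**Figure D4:**
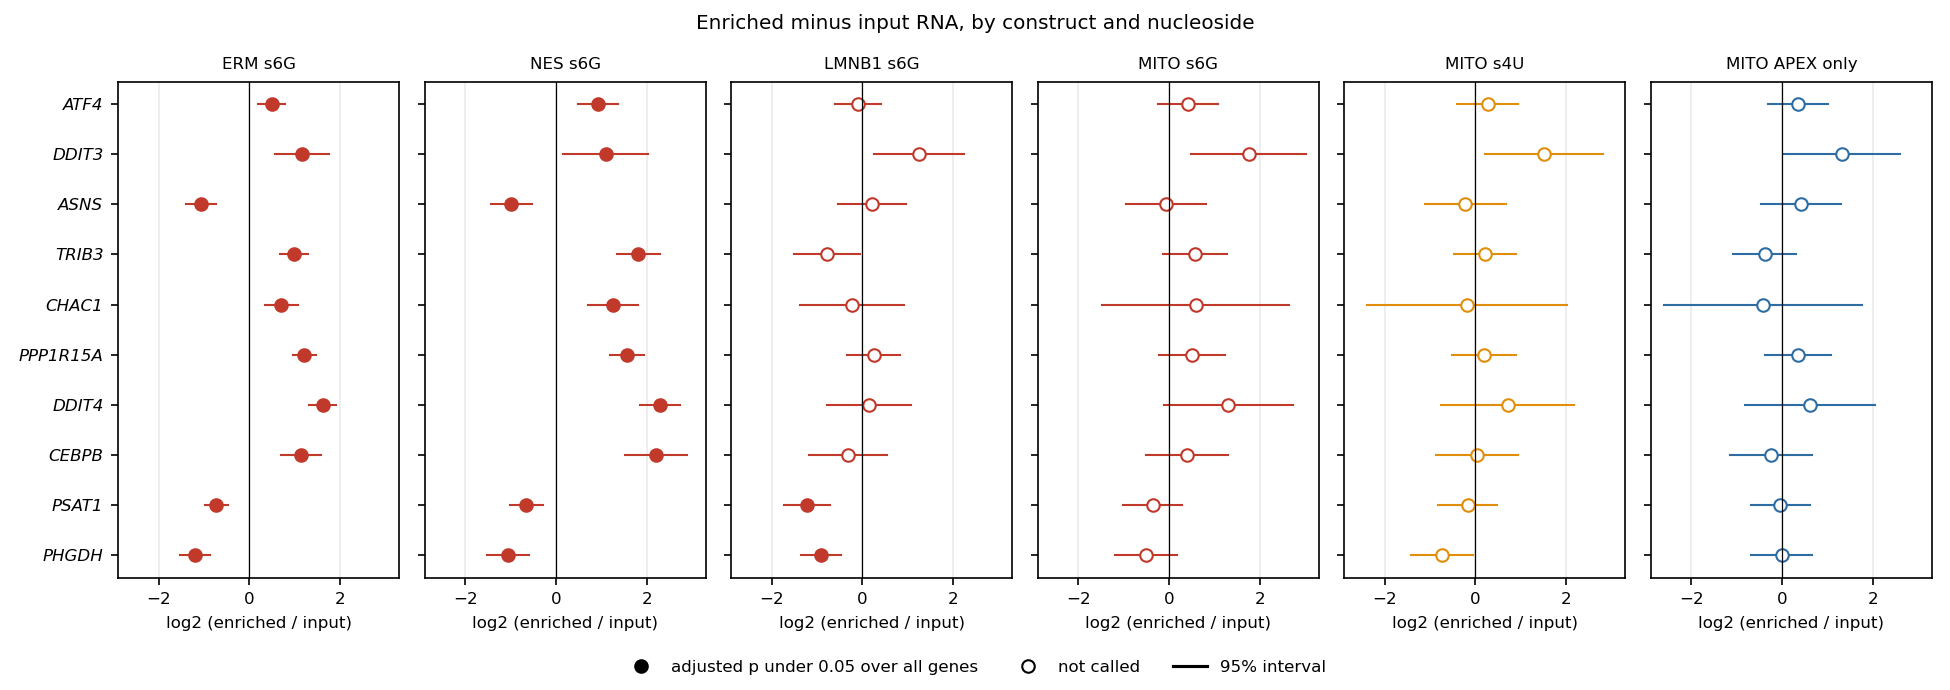
Log2 fold change of enriched over input RNA for each member with its 95% interval in ERM s6G, NES s6G, LMNB1 s6G, MITO s6G, MITO s4U and MITO APEX-only cells, filled where the adjusted p over all genes was under 0.05. In ERM and NES cells 7 members lie right of 0 and ASNS, PSAT1 and PHGDH left of it, and in LMNB1 cells only PSAT1 (−1.22) and PHGDH (−0.92) are filled.

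In LMNB1 s6G cells 2 of 10 members were called, both lower, against 7.64% of all genes called lower and 13% called in either direction. PSAT1 had 155 and 106 normalised CPM in enriched RNA, against 347 and 263 in input, and fell by 1.22 (SE 0.24, adjusted p 0.00557, edgeR). PHGDH had 482 and 364 in enriched RNA, against 865 and 733 in input, and fell by 0.92 (SE 0.21, adjusted p 0.0119). Both calls were lost without LMNB1 s6G enriched number 2 (adjusted p 0.0642 and 0.107) or input number 1 (0.0571 and 0.0958). In the authors' deposited DESeq2 table the s6G values were −1.38 for PSAT1 and −1.07 for PHGDH (adjusted p 0.000197 and 0.00162). For LMNB1 APEX-only cells, without a thionucleoside, the same table gives PHGDH at −0.80 (adjusted p 6.79e-05) and PSAT1 at −0.24 (adjusted p 0.408). DDIT3 had 24.3 and 15.2 in enriched RNA, against 8.15 and 8.42 in input (1.25 ± 0.46, adjusted p 0.0938), and TRIB3 had 12.6 and 13.1, against 16.6 and 27.4 (−0.78 ± 0.34, adjusted p 0.156).

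The arms without a thionucleoside serve as background. LMNB1 APEX-only RNA gave 0 called members, beside 1.43% of all genes, with 2 at an unadjusted p under 0.05. PHGDH had 418 and 481 normalised CPM in enriched RNA, against 762 and 765 in input, at −0.76 ± 0.21 (adjusted p 0.082), and it fell by 0.77 with each enriched library paired to its own input (adjusted p 0.0408, over alternatives 0.00573 to 0.410). PSAT1 had 225 and 228, against 279 and 243, at −0.20 ± 0.23. Unlabelled LMNB1 RNA gave 0 called members, beside 0.0363% of all genes, with 1 at an unadjusted p under 0.05, DDIT3 at 1.59 ± 0.49, and none called by DESeq2. The difference between s6G and APEX only in LMNB1 enrichment was −1.02 ± 0.33 for PSAT1 and −0.15 ± 0.29 for PHGDH, and 0 of 10 members and 0 of all genes passed. PSAT1 had an unadjusted p of 0.00916 by edgeR, and DESeq2 called it (adjusted p 0.0475), beside 799 of all genes.

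In MITO cells no member was called in s6G, s4U, APEX-only or unlabelled RNA, where 0.317%, 0.112%, 0.271% and 9.87% of all genes were. An unadjusted p under 0.05 was reached by 1, 2, 1 and 0 members, and DESeq2 called 0. DDIT4 had 374 and 290.1 normalised CPM in enriched s6G RNA, against 154 and 115 in its input, and 40.5 and 59.1 in enriched s4U RNA, against 17.5 and 43.0 in its input. It had 137 and 64.2 in enriched APEX-only RNA, against 87.4 and 43.0 in its input. In these 3 arms each enriched library lay above its own input. DDIT3 likewise had 21.7 and 13.5 in enriched s6G RNA, against 7.29 and 3.20 in its input, and 9.78 and 7.63 in enriched APEX-only RNA, against 3.95 and 2.96 in its input. With each enriched library paired to its own input, DDIT4 rose by 1.31 (adjusted p 3.88e-05) and DDIT3 by 1.77 (adjusted p 0.00656) in s6G cells, DDIT4 by 0.80 in s4U cells (adjusted p 0.0466), and DDIT4 fell by 1.14 in unlabelled RNA (adjusted p 0.0191). The paired fits also called more of all genes, 1033 in s6G, 755 in s4U and 3105 in unlabelled RNA, against 48, 17 and 1496 unpaired. Over the alternatives the adjusted p of each of these 4 ran up to between 0.875 and 1. Unlabelled enriched number 1 held 0 counts of DDIT3, CHAC1 and DDIT4, which at 123341 total counts allows up to 24.3 CPM, by counting error only. The s6G minus APEX-only difference in enrichment was called for 0 of 10 members and 0 of all genes, with 0 members at an unadjusted p under 0.05, and DESeq2 called 0 members.

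ERM and NES enrichment did not differ by the unpaired test for any member, and 1 gene of all passed (0.0064%). An unadjusted p under 0.05 was reached by 3 members, and DESeq2 called 3. Over all genes DESeq2 called 472 and the paired fit 952. CEBPB differed by −1.06 ± 0.38, TRIB3 by −0.83 ± 0.27 and DDIT4 by −0.68 ± 0.25 in ERM minus NES enrichment (adjusted p 0.234, 0.197 and 0.231, edgeR). With pairing TRIB3 (−0.85, adjusted p 0.0209) and DDIT4 (−0.71, adjusted p 0.00761) passed, and over all alternatives the adjusted p of each ran up to 1.00. Against LMNB1 the differences were larger, in comparisons chosen after the data were seen. In NES minus LMNB1 s6G enrichment 7 of 10 members were called, 6 higher and 1 lower, against 37% of all genes, 20.5% higher and 16.5% lower. In ERM minus LMNB1 6 were called, 5 higher and 1 lower, against 35.8% of all genes, 19.7% higher and 16% lower. TRIB3 differed by 2.73 ± 0.36 in NES and 1.89 ± 0.31 in ERM minus LMNB1 enrichment (adjusted p 1.1e-05 and 9.89e-05). ASNS differed by −1.08 ± 0.35 and −1.17 ± 0.30, while PHGDH differed by −0.03 ± 0.33 and −0.18 ± 0.28 and did not pass. With pairing 8 members were called in each, PSAT1 being added in both and ATF4 in ERM minus LMNB1. Without pairing 6076 and 5867 of all genes were called. Pairing changed these counts by a smaller factor than fitting all 40 libraries did. A fit of all 40 libraries called 4 and 3 members, beside 3535 and 3402 of all genes. The constructs also differ in line, number of replicates and depth, whose part was not tested.

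Calls in the wider lists stand beside 63.2% of all genes called in ERM, 55.1% in NES and 13% in LMNB1 s6G enrichment. The share called ran over the 7 lists from 66.7% to 90% in ERM, from 50% to 88.9% in NES and from 0% to 18.8% in LMNB1 s6G cells, so several lay near or below that of all genes. Of genes of amino acid and one-carbon synthesis, 7 of 12 fell and 1 rose in each construct, with CBS, which makes cystathionine, at −1.33 ± 0.16 in ERM and −1.31 ± 0.23 in NES cells. Of 20 cytosolic aminoacyl-tRNA synthetases 14 fell and 1 rose in ERM, and 13 fell and 0 rose in NES cells, with IARS1 at −1.75 ± 0.12 and −1.69 ± 0.17. Of the 16 eIF2 regulators 10 fell and 3 rose in each. Of 9 bZIP partners tested 6 rose and 1 fell in ERM, and 8 rose and 0 fell in NES cells, with NFIL3 at 1.44 ± 0.13 and 2.25 ± 0.19. Of 14 tested of the other ATF4 or CHOP genes 10 rose and 1 fell in ERM, and 7 rose and 1 fell in NES cells, with SESN2 at 1.49 ± 0.11 and 1.73 ± 0.16. Of the 10 transporters 8 rose and 1 fell in ERM and 4 rose and 1 fell in NES cells, with SLC3A2 at 1.53 ± 0.13 and 0.98 ± 0.19. Of 17 IRE1 and ATF6 branch genes tested 10 rose and 3 fell in ERM, and 8 rose and 6 fell in NES cells, with XBP1 at 1.63 ± 0.11 and 1.60 ± 0.16. The medians of the lists lay between −0.84 and 1.31 in ERM and between −0.83 and 2.12 in NES cells, beside 0.11 and 0.01 over all genes. In LMNB1 s6G enrichment at most 3 genes of any list were called, with CALR, a chaperone of the endoplasmic reticulum, at −1.64 ± 0.19 and SLC38A2, a carrier of neutral amino acids, at 1.63 ± 0.23.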

How the data were processed

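Gene counts were deposited by the authors as 1 table of 57992 genes and 40 libraries; per the submitters' processing notes HISAT2 2.1.0 and HTSeq 0.7.2 were used, and neither the strand setting nor the annotation was stated. The authors also deposited log2(TPM + 1) per MITO group, with columns that sum to 2e+06 TPM and were divided by 2 replicates on the linear scale, and tables of log2 fold changes with p-values, used only where named; the score in those tables, a mean of normalised counts per the file headers, was not used. Libraries were polyA selected. Counts were fitted with edgeR 4.0.16 (R 4.3.3, trimmed mean of M values, filterByExpr, robust quasi-likelihood test, Benjamini-Hochberg adjustment over all genes tested, call at 0.05). Separate fits took the 20 inputs, the MITO, the ERM with NES and the LMNB1 libraries. The differences against LMNB1 came from a fit of the 16 s6G libraries of ERM, NES and LMNB1, without MITO. SE is the log2 fold change over the square root of F. Totals per library set the precision, and p-values measure the spread between deposited replicates. The steps were tested on simulated data.

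Alternatives were DESeq2 1.42.0, other scaling and filters, other sets of libraries, pairing and leaving out each library. Enriched and input libraries of 1 number come from the same replicate, per the series design, and their deviations from group means correlated at 0.03 to 0.49. The members and lists were chosen with earlier results of these data known. Of each list, up to 3 called genes could be named, taken by absolute log2 fold change among those on the side where most of its calls lay, and genes with a like pattern needed a mean log2 CPM of at least 4.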

Additional observations from a re-analysis of the deposited data

Results flagged for a closer look

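PSAT1 in enriched ERM number 1, at 201 normalised CPM, lay apart from the other 3 enriched ERM libraries, which had 234 to 239.9. It was the 1 value of 20 groups of 4 that stood apart, and chance gives about 1 in 20.

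Of 60 member differences between groups tested, 13 passed, all of them in s6G enrichment against LMNB1. In NES minus LMNB1 enrichment these were TRIB3 at 2.73, CEBPB at 2.63, DDIT4 at 2.27, CHAC1 at 1.60, PPP1R15A at 1.44, ATF4 at 1.14 and ASNS at −1.08 on the log2 scale. In ERM minus LMNB1 enrichment they were TRIB3 at 1.89, DDIT4 at 1.58, CEBPB at 1.55, PPP1R15A at 1.07, CHAC1 at 1.03 and ASNS at −1.17. The share of all genes that passed was 37% and 35.8%.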

How the results depend on the processing

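No member changed direction in a called comparison. The count of members called changed as follows. Pairing by replicate number as a block gave 2 in MITO s6G, 1 in MITO s4U, 1 in MITO unlabelled and 1 in LMNB1 APEX-only enrichment and 2 in ERM minus NES enrichment, all against 0. Over all genes these fits called 1033, 755, 3105, 674 and 952, against 48, 17, 1496, 237 and 1 without the block. It changed no other member call except those added in the differences against LMNB1. Among inputs the arms share only a number. The block changed no member call there, and same-numbered deviations correlated at −0.47 to −0.29 between MITO APEX only and the other MITO arms and at 0.38 to 0.50 elsewhere. Without the filter on low counts 1 member was called in MITO s6G over APEX only, 1 in MITO s4U over APEX only and 2 in s6G over s4U. These unfiltered fits called 4 in LMNB1 s6G over APEX only, 2 in ERM over MITO, 1 in NES over MITO and 3 in LMNB1 over MITO APEX only. They also called 1 in s4U over no thionucleoside and 1 in ERM minus NES enrichment. Over all genes they called 238 in s6G over s4U, 992 in ERM over MITO and 574 in NES over MITO. With the filter these were 100, 374 and 86. Likewise 243 of all genes were called in LMNB1 over MITO APEX only and 104 in ERM minus NES, against 88 and 1. With the filter 652, 174 and 963 of all genes were called in MITO s6G, MITO s4U and LMNB1 s6G over APEX only. In s4U over no thionucleoside 550 were. Without the filter these counts changed by smaller factors than those just given. DESeq2 gave 1 in MITO s6G over APEX-only inputs and 3 in ERM minus NES. It gave 1 in LMNB1 APEX-only enrichment and 1 in the LMNB1 s6G minus APEX-only difference in enrichment. Over all genes DESeq2 called 472 in ERM minus NES, 1051 in LMNB1 APEX-only enrichment and 799 in that LMNB1 difference. By edgeR these were 1, 237 and 0. Fitting the compared constructs alone, or all 40 libraries, gave 0 in LMNB1 s6G over APEX-only inputs. Over all genes these fits called 3 and 316 there, against 963 in the main fit. In MITO s6G over APEX-only inputs the MITO inputs alone called 0 of all genes, against 652. All 40 gave 4 in NES minus LMNB1 and 3 in ERM minus LMNB1. Over all genes they called 3535 and 3402 there, against 6076 and 5867. The LMNB1 libraries of the compared arm alone gave 1 in APEX-only enrichment, beside 1317 of all genes, against 237 in the main fit. Total counts gave 3 in s6G over no thionucleoside and 2 in MITO s6G enrichment. In that enrichment they shifted the median of all genes to −0.87 and called 2815 of all genes, against 48. ERM numbers 3 and 4 alone gave 1 in ERM over MITO inputs and 1 in ERM minus NES, and numbers 1 and 2 gave 2 in ERM minus NES. Over all genes numbers 3 and 4 called 948 in ERM over MITO inputs, against 374 with all 4. In ERM minus NES numbers 3 and 4 called 1500 of all genes and numbers 1 and 2 called 778, against 1. Leaving out 1 library at a time gave 2 to 7 members in s6G over no thionucleoside, 0 to 1 in LMNB1 and in MITO s6G over APEX-only inputs, 10 to 10 in ERM, 8 to 10 in NES, 0 to 2 in LMNB1 s6G and 0 to 1 in MITO unlabelled enrichment, 6 to 7 in NES minus LMNB1, 4 to 8 in ERM minus LMNB1 and 0 to 0 in the other comparisons. With 1 library left in an arm, its spread is taken from the other groups. The causes were not tested. With 2 replicates an arm and few DDIT3 reads, small differences were not detectable.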
